A study of Mus musculus with 23 samples.

Results

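Imprinted genes that act on growth were described across 23 clonal mouse preadipocyte lines, which are cell lines each grown from 1 sorted cell. Of 10 listed genes (Grb10, Igf2, H19, Dlk1, Meg3, Mest, Peg3, Cdkn1c, Plagl1 and Ndn), 9 had a probe set assigned to a single gene symbol on the array and 8 passed the filter on low values, of 12307 tested genes and 18193 genes in all. A gene with several probe sets is given by the one whose mean across the lines was highest.

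Genomic imprinting is the expression of a gene from only the copy inherited from one parent, set by DNA methylation placed in the germ line. Many imprinted genes act on growth: genes expressed from the paternal copy often promote it, and genes expressed from the maternal copy often restrain it. In adipose tissue several of them are known as markers or regulators of preadipocytes, among them Dlk1, an inhibitor of adipocyte differentiation, and Mest, which is associated with fat mass expansion in mice.

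The lines were grown from single cells of the stromovascular fraction of fat. The donor was 1 male Immortomouse, 8 weeks old, whose perigonadal and subcutaneous depots were both used. An Immortomouse carries a temperature-sensitive viral large T antigen under an interferon-inducible promoter, so every line was immortalised. Sorting placed 190 ungated cells 1 to a well after 2 passages, and cultures were held at 33 °C in medium that contained interferon gamma at 10 units/mL. Each of the 23 lines was measured on 1 array, and the sources used here do not give the differentiation state of the cells at RNA isolation. The submitters' adipocyte type label put 3 lines in Type 1, 5 in Type 2, 8 in Type 3 and 7 in a class called Other. The labels give no difference of genotype, age or culture between the groups. The clone name begins with PGF in 11 lines and with SCF in 12, taken here as perigonadal and subcutaneous fat. All 3 Type 1 lines were PGF, as were 1 of the 5 Type 2 lines, 4 of the 8 Type 3 lines and 3 of the 7 Other lines. Per the labels, each line was also scored from 1 to 4 for differentiation and for acidification of its medium.

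Values are deposited log2 signals. The median of all values was 5.13, called the table median here, and array medians ran from 5.09 to 5.16. Array pairs correlated at 0.937 to 0.992 and 0 pairs were identical. The difference between the 3′ and 5′ actin control probe sets, a sign of RNA quality, was 1.58 in Type 1 line 1 and 0.53 to 1.00 in the other lines. Of 9 tested mesothelial markers, genes of the cell layer that covers visceral fat, 8 were higher in Type 1 lines in each comparison with another group, and Krt19 was lower than in Type 2 (difference -2.29, limma adjusted p = 0.036). The list averaged 8.62 to 10.59 in Type 1 lines, against 4.29 to 4.53 for Type 2 lines, 4.01 to 4.39 for Type 3 lines and 4.08 to 5.32 for Other lines. The preadipocyte markers averaged 6.58 to 7.00 in Type 1 lines, against 8.73 to 9.07 for Type 2 lines, 8.74 to 10.05 for Type 3 lines and 7.06 to 9.55 for Other lines. Of 9 tested preadipocyte markers 7 were lower in Type 1 than in Type 3 and Other, and 6 were lower than in Type 2. Cd34 was higher than in Type 2 (difference 4.42, limma adjusted p = 0.0157). Of all tested genes, 14.5% to 18.9% were higher and 10.7% to 15.8% lower across these comparisons. Of the leukocyte markers, Ptprc, Adgre1 and Itgam were below the table median in every line, while Csf1r ran from 5.98 to 11.68 and Cd68 from 4.12 to 7.66. Of the endothelial markers, Pecam1, Cdh5, Tie1, Vwf and Emcn were below it in every line, while Kdr ran from 5.49 to 8.86 and Tek from 3.97 to 10.59. The leukocyte list averaged 4.71 to 4.80 for Type 1 lines, 5.13 to 5.41 for Type 2 lines, 4.43 to 5.29 for Type 3 lines and 4.96 to 5.54 for Other lines, and the endothelial list stayed between 3.98 and 4.95. The submitters formed the groups by clustering expression data, so tests between them describe the groups, and p-values measure the spread between clones of 1 mouse. Precision is limited by the number of arrays.

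The promoter windows below belong to the genes on which the results turn: Grb10 for its on and off pattern, Meg3, Rian and Dlk1 for their shared domain on chromosome 12, and Peg3 for its level in Type 1 lines. Each runs from 250 bases before to 50 after an annotated start, 5′ to 3′ on the gene's strand, from RefSeq (GRCm38.p6), with CG dinucleotides, the targets of DNA methylation, in capitals. Of the members, 8 had at least 1 window.
Grb10 window 1, chr11:12037371-12037670, minus strand: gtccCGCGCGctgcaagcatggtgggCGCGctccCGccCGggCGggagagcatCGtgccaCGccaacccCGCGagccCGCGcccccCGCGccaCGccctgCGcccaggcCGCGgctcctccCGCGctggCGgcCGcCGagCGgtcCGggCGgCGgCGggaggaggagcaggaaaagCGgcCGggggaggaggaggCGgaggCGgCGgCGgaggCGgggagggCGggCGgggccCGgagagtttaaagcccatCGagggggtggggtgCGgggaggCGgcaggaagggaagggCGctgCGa
Grb10 window 2, chr11:12027922-12028221, minus strand: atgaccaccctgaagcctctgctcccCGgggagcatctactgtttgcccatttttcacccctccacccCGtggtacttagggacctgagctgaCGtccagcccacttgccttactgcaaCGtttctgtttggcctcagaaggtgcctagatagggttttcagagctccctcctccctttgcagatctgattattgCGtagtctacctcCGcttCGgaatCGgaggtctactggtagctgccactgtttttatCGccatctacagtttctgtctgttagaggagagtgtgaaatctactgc
Meg3 window 1, chr12:109540746-109541045, plus strand: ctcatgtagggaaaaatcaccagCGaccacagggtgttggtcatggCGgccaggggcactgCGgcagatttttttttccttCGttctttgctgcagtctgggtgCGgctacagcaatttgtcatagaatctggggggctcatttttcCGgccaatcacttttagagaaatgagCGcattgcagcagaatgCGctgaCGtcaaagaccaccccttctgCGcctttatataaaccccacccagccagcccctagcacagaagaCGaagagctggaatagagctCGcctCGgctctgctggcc
Rian, chr12:109603695-109603994, plus strand: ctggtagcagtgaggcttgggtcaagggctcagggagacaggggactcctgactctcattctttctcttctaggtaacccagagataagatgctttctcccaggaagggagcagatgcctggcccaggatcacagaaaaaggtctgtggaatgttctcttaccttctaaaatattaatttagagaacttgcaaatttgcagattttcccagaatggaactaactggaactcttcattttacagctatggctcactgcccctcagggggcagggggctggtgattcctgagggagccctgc
Dlk1, chr12:109452573-109452872, plus strand: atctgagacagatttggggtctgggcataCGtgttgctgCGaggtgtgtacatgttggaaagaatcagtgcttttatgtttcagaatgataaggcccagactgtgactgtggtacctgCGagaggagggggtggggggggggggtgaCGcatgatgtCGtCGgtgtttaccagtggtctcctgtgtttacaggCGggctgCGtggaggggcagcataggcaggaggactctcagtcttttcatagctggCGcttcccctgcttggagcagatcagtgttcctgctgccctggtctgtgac
Peg3, chr7:6730370-6730669, minus strand: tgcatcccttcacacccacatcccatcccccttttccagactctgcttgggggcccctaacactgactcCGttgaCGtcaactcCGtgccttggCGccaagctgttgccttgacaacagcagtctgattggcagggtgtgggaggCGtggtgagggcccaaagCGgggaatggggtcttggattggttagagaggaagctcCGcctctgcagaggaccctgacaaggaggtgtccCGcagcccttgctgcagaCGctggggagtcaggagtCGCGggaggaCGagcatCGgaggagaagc

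Grb10 window 1 held 45 CG dinucleotides. Of the 32851 mouse windows, this one included, 98.4% held 45 or fewer, and the median was 7. Grb10 window 2 held 9, Meg3 window 1 and Peg3 held 13 each, Dlk1 held 9 and Rian held 0. Motifs were searched on both strands. The cyclic AMP response element TGACGTCA was found at -57 from the start in Meg3 window 1 and at -178 in Peg3, and 1.79% of all windows hold it. The GC box GGGCGG was found 5 times in Grb10 window 1, and 35.7% of all windows hold it. The TATA box letters TATAAA were found at -29 and -25 in Meg3 window 1, where the 2 matches overlap, and 13.6% of all windows hold them. A match describes the letters only. No methylation or binding was measured in these samples.

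Most tested members varied widely from clone to clone, and they were chosen with earlier results of these data known. Over the 23 lines the median gene had an SD of 0.243 log2 units, and 6 of the 8 tested members lay among the 10% of genes with the largest SD. So did 4 of 21 tested other imprinted genes, 9 of 9 mesothelial markers and 8 of 9 preadipocyte markers. Grb10 had an SD of 3.04, rank 1 of 12307, and a range of 8.35 log2 units, or 326-fold. Its lowest value, 3.43, lay below the table median, where signal may be background, so the fold describes signal only. Its other probe sets had SDs of 1.03 and 0.34, with ranges of 3.31 and 1.27. Plagl1 had an SD of 1.54 and Meg3 of 1.49, at percentiles 98.7 and 98.5 of tested genes. Dlk1 had 1.07, Peg3 0.98 and Ndn 0.85, at percentiles 95.7, 94.8 and 92.8. Cdkn1c, at 0.69, was at percentile 89.1 and Igf2, at 0.37, at percentile 73.3. The comparison with genes of similar mean signal, within 0.5 log2 units, gave percentiles of 99.9 for Grb10, 99.0 for Plagl1, 99.0 for Meg3 and 69.9 for Igf2. A range of at least 4 log2 units was found for Grb10, Plagl1, Meg3 and Ndn, and for 4.74% of tested genes.

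**Figure D1:**
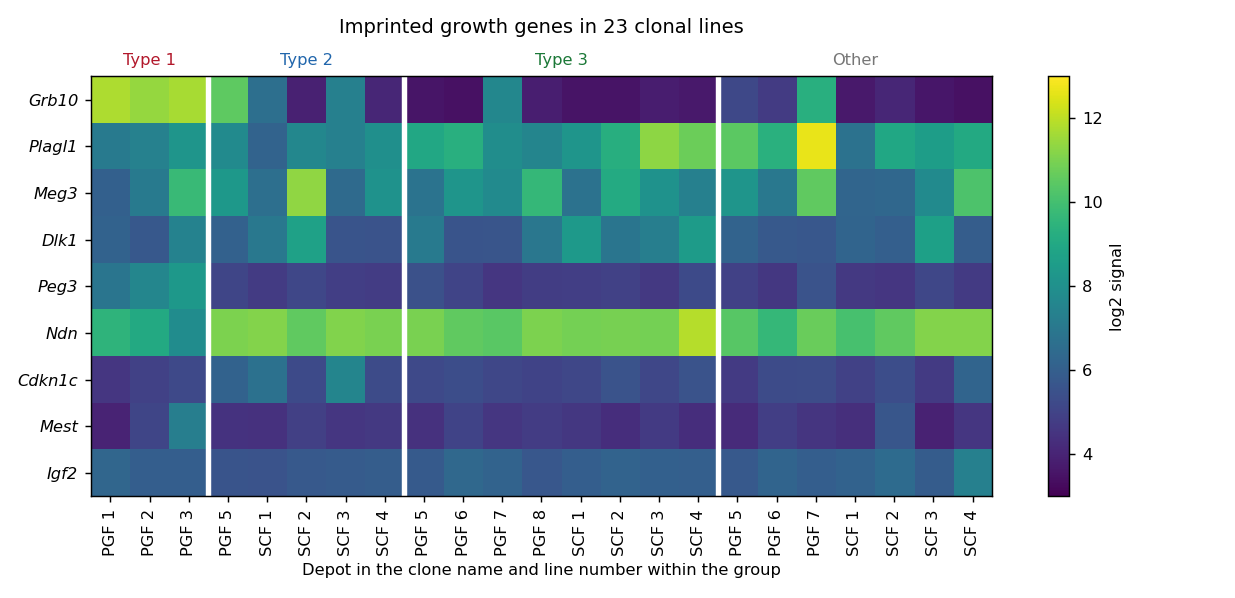
Heat map of the log2 signal of the 9 members with a single-symbol probe set (rows, ordered by SD over the lines) in the 23 lines (columns, grouped by type label and depot). Grb10 was above 11 in all 3 Type 1 lines and below 5.13 in 14 lines, while Igf2 stayed between 5.54 and 7.37.

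The share of that variance that lay between the 4 groups differed by member. It was 88.3% for Peg3, 70.4% for Ndn and 65.8% for Grb10, against 33.7% for Plagl1, 7.84% for Dlk1 and 1.08% for Meg3. Without the 3 Type 1 lines the SD of Peg3 was 0.28 and that of Ndn 0.47. The SD of Grb10 over the same 20 lines was 2.14, of Plagl1 1.58, of Meg3 1.47 and of Dlk1 1.11. Peg3 and Ndn varied mainly between Type 1 and the other lines, and Meg3, Plagl1 and Dlk1 mainly within groups.

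**Figure D2:**
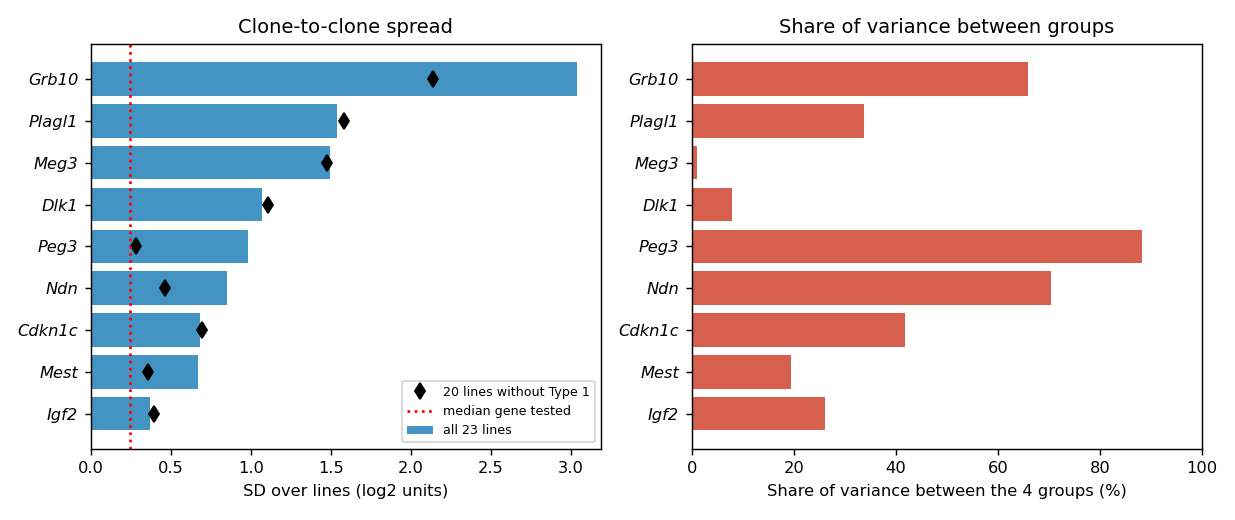
Left, SD of each member's log2 signal over 23 lines (bars) and over the 20 lines without Type 1 (diamonds), with the median gene's SD of 0.243 as a dotted line. Right, percent of each member's variance that lay between the 4 groups, from 1.08% for Meg3 to 88.3% for Peg3.

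Grb10 encodes an adaptor protein that binds the insulin and insulin-like growth factor 1 receptors and restrains their signalling, and most mouse tissues outside the nervous system express its maternal copy. It had 11.78, 11.43 and 11.71 in the 3 Type 1 lines and 6.65, 3.93, 7.35, 4.08 and 10.54 in the 5 Type 2 lines. The 8 Type 3 lines ran from 3.44 to 7.61 with a median of 3.62, and the 7 Other lines from 3.43 to 9.32 with a median of 4.07. All 3 Type 1 lines were above all 20 others, as for 7.86% of tested genes, and 3 of the 5 Type 2 lines, 1 Type 3 line and 1 Other line stood well above the lowest lines of their groups. With low set below the table median of 5.13 and high at 8.13 or more, Grb10 was low in 14 lines, high in 5 and between in 4. The 5 high lines were the 3 Type 1 lines, Type 2 line 5 at 10.54 and Other line 7 at 9.32, and the largest gap lay between 7.61 and 9.32. With at least 2 lines on each side, Grb10 was the 1 member with this on and off pattern, which 1.79% of tested genes showed. Among the 20 lines without Type 1 Grb10 still had it, as did 0.65% of tested genes. The mean of its 3 probe sets did not show it. The other sets were dimmer: the second ran from 4.69 to 7.99 (r with the main set 0.900) and the third from 3.75 to 5.02 (r 0.822).

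Grb10 was higher in Type 1 than in each other group, by limma with Benjamini-Hochberg adjustment over 12307 genes. The mean was 11.64 ± 0.19 in Type 1 (SD, n = 3), 6.51 ± 2.72 in Type 2 (n = 5), 4.12 ± 1.42 in Type 3 (n = 8) and 4.86 ± 2.06 in Other (n = 7). The difference was 7.52 ± 1.21 (SE) from Type 3 (limma adjusted p = 5.64e-05), 6.78 ± 1.24 from Other (0.00027) and 5.13 ± 1.31 from Type 2 (0.00595). With depot in the model the difference from Type 2 was 3.25 with an adjusted p of 0.062, so that call was lost, and depot and Type 1 overlap because all Type 1 lines were PGF. Its other tested probe set, in a separate fit adjusted over 21678 probe sets, also passed in all 3 comparisons, with smaller differences, the least being 2.43. Type 2 differed from Type 3 by 2.39 ± 1.02 (limma adjusted p = 0.231) and from Other by 1.64 ± 1.05 (0.518), neither past the threshold. When any 1 line was left out, Type 1 line 1 included, all 3 calls held, with differences from 4.49 to 8.02.

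Peg3 is a paternally expressed zinc finger gene linked to growth and to cell death after p53 activation. It had 6.90, 7.60 and 8.32 in the Type 1 lines and 4.74, 5.12, 4.85, 4.79 and 5.09 in the Type 2 lines. Type 3 lines ran from 4.58 to 5.48 with a median of 4.89, and Other lines from 4.59 to 5.56 with a median of 4.71. The 3 Type 1 lines were above all others, as for 7.86% of tested genes, and 17 of the 20 other lines were below the table median. It was higher in Type 1 by 2.69 ± 0.25 than in Type 2 (limma adjusted p = 5.04e-08), by 2.65 ± 0.23 than in Type 3 (1.33e-08) and by 2.71 ± 0.24 than in Other (1.54e-08). A second probe set ran from 2.87 to 9.23 (r with the main set 0.962) and was above the table median in 5 lines.

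Ndn encodes necdin, a paternally expressed protein that restrains proliferation and preadipocyte differentiation. It had 9.52, 9.06 and 7.86 in the Type 1 lines and 11.15, 10.55, 11.10, 11.00 and 11.05 in the Type 2 lines. Type 3 lines ran from 10.43 to 11.87 with a median of 10.94, and Other lines from 9.67 to 11.16 with a median of 10.57. All 3 Type 1 lines lay below every other line, as for 5.89% of tested genes, and the lowest of the rest was Other line 6 at 9.67. It was lower in Type 1, with a difference of -2.16 ± 0.35 from Type 2 (limma adjusted p = 7.73e-05), -2.15 ± 0.32 from Type 3 (2.33e-05) and -1.72 ± 0.33 from Other (0.000401). All 6 of its tested probe sets passed in each comparison, adjusted over 21678 probe sets, with differences from -2.28 to -1.36. When any 1 line was left out the calls of Peg3 and Ndn held, with differences from 2.30 to 3.07 and from -2.51 to -1.25.

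Cdkn1c encodes the cyclin-dependent kinase inhibitor p57, expressed from the maternal copy. It had 4.57, 4.92 and 5.20 in the Type 1 lines and 6.75, 5.26, 7.54, 5.30 and 6.15 in the Type 2 lines. Type 3 lines ran from 5.00 to 5.57 with a median of 5.16, and Other lines from 4.70 to 6.24 with a median of 5.30. Type 1 lines were narrowly below every Type 2 line, with a highest value of 5.20 against a lowest of 5.26, and overlapped Type 3 and Other. Both values lay close to the table median. The share of tested genes with such a separation from Type 2 was not computed, so nothing particular to Cdkn1c is read from it. Cdkn1c was lower in Type 1 than in Type 2, with a difference of -1.30 ± 0.39 (limma adjusted p = 0.0165). That call was lost with depot in the model (-1.16, adjusted p = 0.0685), with only the lines of Type 1 and Type 2 (0.0919) and without Type 1 line 1 (-1.14, 0.0936). Type 2 differed from Type 3 by 0.94 ± 0.30 (limma adjusted p = 0.134) and from Other by 0.97 ± 0.31 (0.179), which did not pass.

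**Figure D3:**
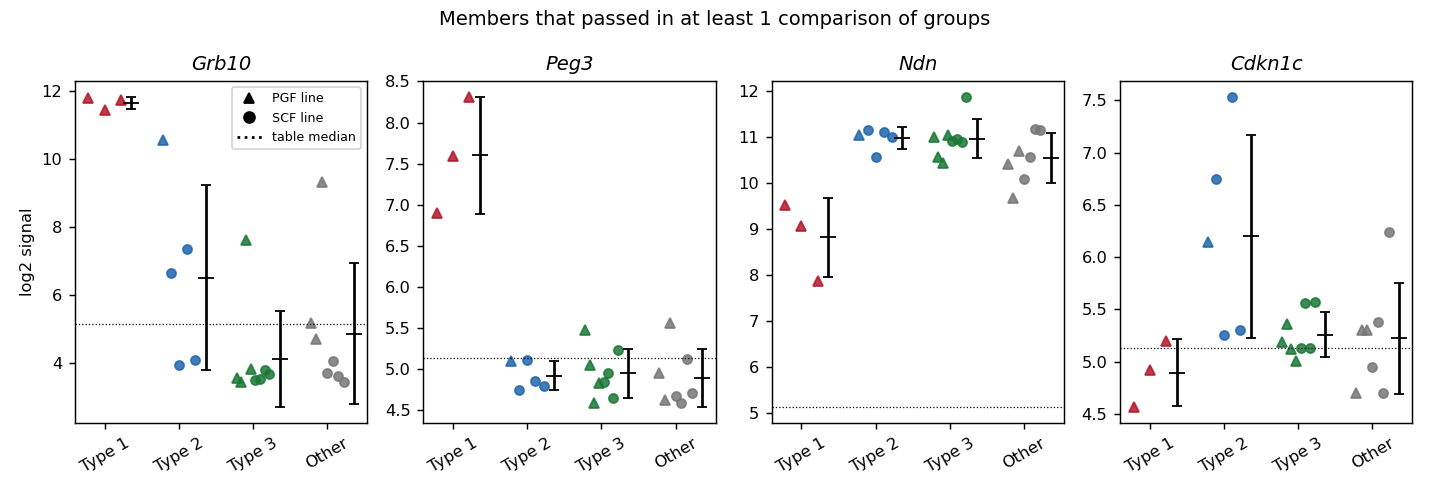
Log2 signal of Grb10, Peg3, Ndn and Cdkn1c in every line of Type 1, Type 2, Type 3 and Other (triangles PGF, circles SCF, black bars mean ± SD, dotted line the table median of 5.13). Type 1 lines sit above all others for Grb10 and Peg3 (7.86% of tested genes) and below all others for Ndn (5.89%). For Cdkn1c they sit narrowly below the Type 2 lines only, a separation whose share of tested genes was not computed.

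In counts, 4 of the 8 tested members changed between groups by the F test across all 4 groups, where 30.5% of tested genes passed. Type 1 against Type 2 called 4 members (Grb10 and Peg3 higher, Ndn and Cdkn1c lower) where 25.2% of genes passed (14.5% higher, 10.7% lower). Type 1 against Type 3 called Grb10, Peg3 and Ndn, 3 members, where 34.7% passed (18.9% higher, 15.8% lower), and Type 1 against Other called the same 3 where 28.4% passed (16% higher, 12.4% lower). The 3 comparisons share the Type 1 lines. Type 2 against Type 3, Type 2 against Other and Type 3 against Other called 0 members, where 0.382% (0.203% higher, 0.179% lower), 0.00813% and 0% of genes passed. At an unadjusted p under 0.05 these 3 comparisons had 3, 3 and 0 members, with 2163, 1651 and 1083 of 12307 genes. Against Type 3 and Other, 3 of 8 members is close to the share of all genes, and nothing particular to the members is read from it.

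Mest, a paternally expressed gene of the hydrolase family, was above the table median in 2 lines only and was therefore not tested with the rest. It had 4.01, 5.08 and 7.26 in the Type 1 lines, against 4.41 to 4.88 for Type 2 lines, 4.29 to 5.00 for Type 3 lines and 3.96 to 5.69 for Other lines. The single value of 7.26, in Type 1 line 3, was 1.58 above the next line. Without the filter on low values the difference of Type 1 from Type 3 was 0.87 ± 0.41 (limma adjusted p = 0.137).

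Meg3 is a maternally expressed long noncoding RNA, Rian is a second one from the same domain on chromosome 12, and Dlk1, which encodes a transmembrane protein of the Notch ligand family, is expressed there from the paternal copy. Meg3 had 6.05, 7.11 and 9.79 in the Type 1 lines and 6.65, 11.33, 6.44, 8.09 and 8.32 in the Type 2 lines. Type 3 lines ran from 6.77 to 9.65 with a median of 7.95, and Other lines from 6.24 to 10.56 with a median of 7.78. The groups overlapped, and Type 3 lines lay inside the range of each other group. No difference between groups passed (F adjusted p = 0.979), nor did the depot difference of 0.51 ± 0.71 (limma adjusted p = 0.872). The 4 other Meg3 probe sets with the widest ranges correlated with the main set at 0.963 to 0.988. The remaining sets, with narrower ranges, correlated with it at 0.637 to 0.807.

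Across the 23 lines Rian had the pattern most like that of Meg3 among the tested genes ranked, with a Pearson r of 0.978 and a Spearman rho of 0.971. Without the 2 lines farthest from the median r was 0.965, and over the 20 lines without Type 1 it was 0.977. The next genes were Lpp at 0.758 and Kcnip2 at 0.631. The ranking left out clone and predicted names, such as those ending in Rik or made of Gm and a number. Dlk1 did not follow Meg3 in this way: r was 0.178, rho 0.084, and r 0.095 without Type 1. Mirg, another listed imprinted gene on chromosome 12, followed Meg3 less closely than Rian did. Its r was 0.586 and rho 0.507, with r 0.34 without the 2 farthest lines and 0.683 without Type 1. Mirg signals, from 4.38 to 5.49, lay near the table median. All these values are descriptions over lines that share 1 mouse and one set of arrays. Type 2 line 2 had the highest Meg3 at 11.33, with the highest Rian at 9.90 and the highest Dlk1 at 8.71. Other line 7 had the second highest Meg3 at 10.56 and Rian at 9.21, with a Dlk1 of only 5.72. Other line 3, with the second highest Dlk1 at 8.68, had a Meg3 of 7.78. Of the 5 lines with the highest Meg3, 4 were among the 5 with the highest Rian and 2 among the 5 with the highest Dlk1.

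**Figure D4:**
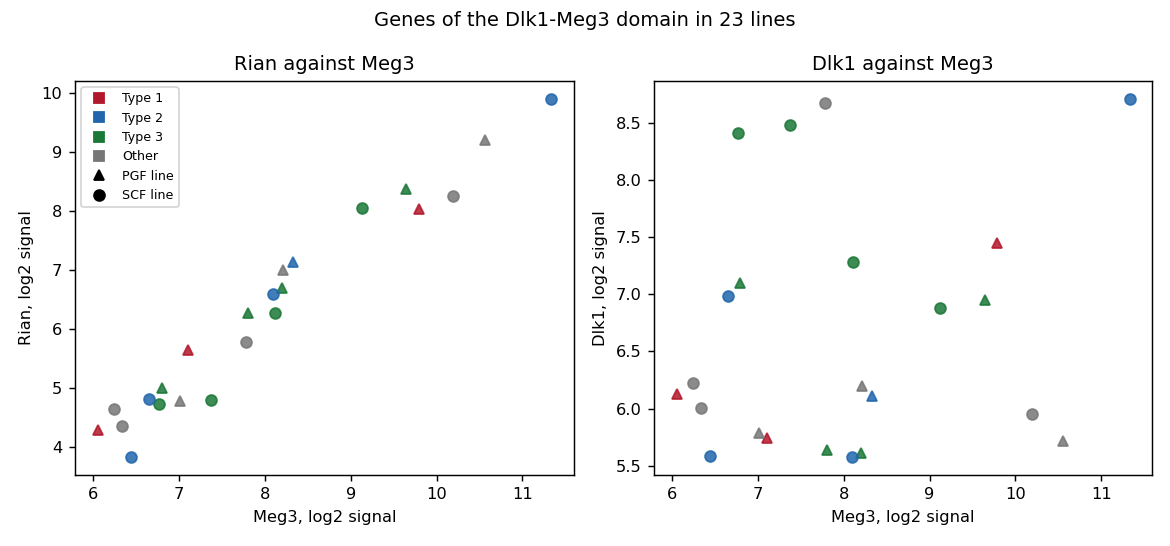
Log2 signal of Rian (left) and Dlk1 (right) against Meg3 in the 23 lines, with 1 point per line and groups by colour. Rian was higher in lines with higher Meg3 over the whole range (r = 0.978), and Dlk1 showed no such order (r = 0.178).

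Dlk1 had 6.13, 5.74 and 7.45 in the Type 1 lines and 6.99, 8.71, 5.58, 5.58 and 6.11 in the Type 2 lines. Type 3 lines ran from 5.61 to 8.49 with a median of 7.03, and Other lines from 5.72 to 8.68 with a median of 6.01. The 4 lines at 8.41 or more stood 0.96 above the rest, and all 4 were SCF: Type 2 line 2, Type 3 lines 1 and 4, and Other line 3. This cut was set at the largest gap after the values were seen, and the share of tested genes with such a depot split was not computed. The F test across groups gave an adjusted p of 0.706. Its other probe set, from 4.81 to 5.39, correlated with the main one at 0.466.

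Plagl1 encodes a zinc finger protein that restrains the cell cycle and is expressed from the paternal copy. It had 7.12, 7.38 and 8.21 in the Type 1 lines and 6.20, 7.62, 7.36, 7.98 and 7.78 in the Type 2 lines. Type 3 lines ran from 7.55 to 11.30 with a median of 9.13, and Other lines from 6.75 to 12.66 with a median of 9.07. Type 1 and Type 2 had similar ranges, and both overlapped Type 3 and Other. All lines above 9, a cut chosen after the values were seen, were in Type 3 or Other. The share of tested genes with such a split was not computed, so nothing particular to Plagl1 is read from it. No comparison of groups passed. The differences from Other were -1.84 ± 0.88 for Type 1 (limma adjusted p = 0.123) and -2.02 ± 0.74 for Type 2 (0.241). A second Plagl1 probe set ran from 4.81 to 6.74 (r with the main set 0.864). Its differences from Other were -0.225 for Type 1 and -0.382 for Type 2. The third set was above the table median in 1 line only (r 0.770). Igf2, a paternally expressed growth factor, was between 5.54 and 7.37 in all lines, its second probe set was below the table median in all lines, and the 2 sets did not follow each other (r = -0.05). H19, a maternally expressed noncoding RNA next to Igf2, is given no value, since its probe set lists 2 symbols.

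Depot of origin was compared next. With group in the model, 0 of the 8 tested members differed between PGF and SCF lines, and 0% of genes passed. At an unadjusted p under 0.05 there were 2 members and 1034 of 12307 genes. Grb10 ran from 3.44 to 11.78 with a median of 7.61 in PGF lines, and from 3.43 to 7.35 with a median of 3.75 in SCF lines. All 5 high lines were PGF, 4 of 11 PGF lines were low, and 10 of 12 SCF lines were low. The difference was 2.35 ± 0.69 (unadjusted p = 0.00273, limma adjusted p = 0.492). Outside Type 1, 2 of 8 PGF lines were high and the PGF mean was 6.03 against 4.28 in SCF lines. Within Type 2 the 1 PGF line had 10.54 and the 4 SCF lines averaged 5.50 ± 1.75. Within Type 3 the means were 4.61 ± 2.01 in PGF and 3.63 ± 0.14 in SCF lines (n = 4 each), and within Other 6.41 ± 2.53 (n = 3) and 3.70 ± 0.27 (n = 4). Its second probe set differed between depots by 0.37 (limma adjusted p = 0.445, over 21678 probe sets). Dlk1 ran from 5.61 to 7.45 in PGF lines and from 5.58 to 8.71 in SCF lines, a difference of -1.06 ± 0.44 (limma adjusted p = 0.558).

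The depot means of Plagl1, by its main probe set, had opposite order in Type 3 and Other. Its other probe sets were not compared in this way. Within Type 3 it averaged 8.44 ± 0.85 in PGF and 9.88 ± 1.40 in SCF lines, and within Other 10.83 ± 1.68 in PGF and 8.34 ± 1.08 in SCF lines. The test of the difference between these 2 depot differences, added after the values were seen, gave -3.94 ± 1.07 with an unadjusted p of 0.00166 and a limma adjusted p of 0.284. It therefore did not pass, and 0% of tested genes did.

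**Figure D5:**
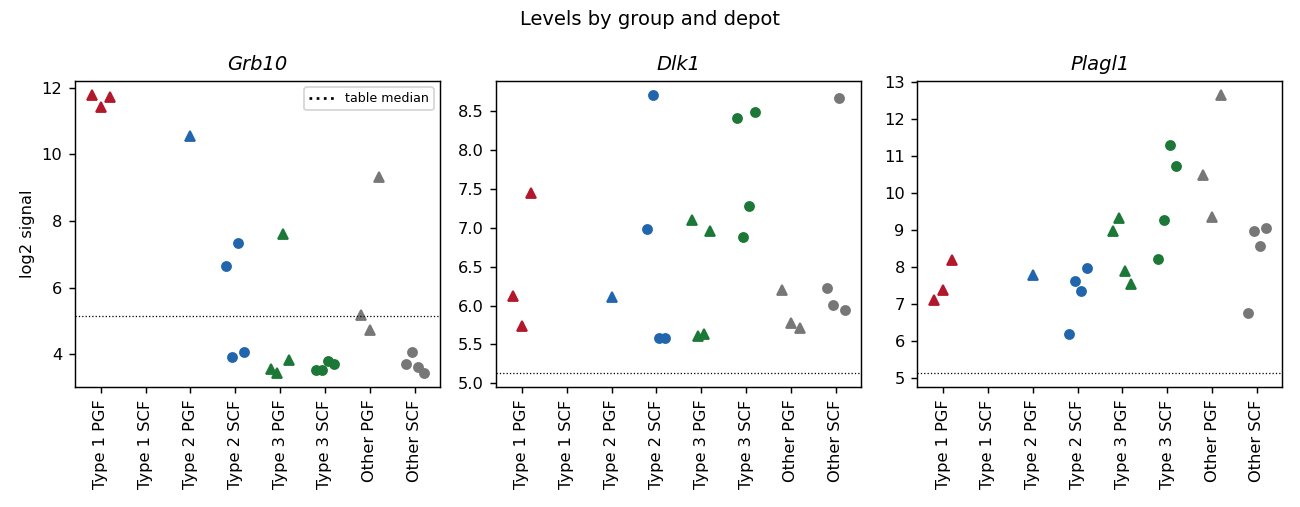
Log2 signal of Grb10, Dlk1 and Plagl1 by group and depot, PGF beside SCF within each group (1 point per line). The 5 high Grb10 lines are all PGF, and 3 of them are Type 1, a group with PGF lines only. The 4 Dlk1 lines at 8.41 or more, a cut taken from the values, are all SCF. Plagl1 depot means have opposite order in Type 3 and Other. No depot difference with group in the model passed for these genes, nor did the Plagl1 comparison of depot differences. In both tests 0% of tested genes passed.

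No slope on the differentiation score or on the media acidification score passed for any member, and 0% of tested genes passed for either. At an unadjusted p under 0.05 the counts of members were 0 and 2, with 872 and 1516 genes. Grb10 had a slope of -0.89 ± 0.28 per acidification point (limma adjusted p = 0.297) and -0.28 ± 0.52 per differentiation point (0.953). Igf2 had 0.12 ± 0.06 per acidification point (0.381). The sources used here do not say which way the acidification score runs.

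For the other members that spanned at least 4 log2 units, the 3 genes with the highest Pearson r over the 23 lines were taken as a description. Clone and predicted names were again left out. For Grb10 they were Yaf2 (r = 0.892), Stk4 (0.885) and Osgin2 (0.884), which over the 20 lines without Type 1 had 0.781, 0.732 and 0.758. For Plagl1 they were Dip2c (0.806), Clec1a (0.751) and Foxp2 (0.732). For Ndn they were Rftn2 (0.886), Thsd7a (0.882) and Ddr2 (0.882), which without Type 1 had 0.582, 0.554 and 0.624. Among members, Grb10 and Peg3 had r = 0.742 over all lines and 0.187 without Type 1, and Peg3 and Ndn had -0.774 and 0.357.

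Of 42 other imprinted genes listed, 36 had a probe set and 21 were tested. In Type 1 against Type 2, 2 were higher and 8 lower, against Type 3 3 and 6, and against Other 2 and 6. Of all tested genes, 14.5% were higher and 10.7% lower against Type 2, 18.9% and 15.8% against Type 3, and 16% and 12.4% against Other. The list medians were -0.02, -0.10 and -0.03, beside 0.01 for all genes in each. Asb4, a placental and hypothalamic ubiquitin ligase subunit, was lower in Type 1, with a difference of -2.31 ± 0.67 from Type 2 (limma adjusted p = 0.0146), -2.35 against Type 3 (0.00583) and -2.87 against Other (0.00168). Igf2r, the receptor that clears Igf2, was lower, with -1.04, -1.10 and -0.91, and Airn, a noncoding RNA antisense to it, was higher, with 1.22, 1.52 and 1.09 (largest adjusted p 0.0152 for Igf2r and 0.00231 for Airn). Peg12 was lower, with -1.68, -1.23 and -0.92, and Atp10a higher, with 1.23, 1.79 and 1.09. Peg12 signals were low, with group means from 3.49 in Type 1 to 5.165 in Type 2, below or close to the table median. Mcts2 was higher in Type 1 than in Type 3, by 0.43 (limma adjusted p = 0.0454). Comparisons outside Type 1 called 0.

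Among 16 tested methylation and imprint factors, 5 were higher and 1 lower in Type 1 against Type 2, and 5 and 2 against Type 3 and against Other. Dnmt3l, a cofactor of de novo methylation, was lower, with differences of -1.99, -1.96 and -1.64, and Tet2, which oxidises methylated cytosine, was higher by 0.90, 0.49 and 0.54. Of 14 tested genes of insulin-like growth factor signalling, 4 were higher and 3 lower in each Type 1 comparison. Igfbp2 and Igfbp5 encode binding proteins of these factors. Igfbp2 was higher, with differences of 6.87, 6.80 and 6.18, and Igfbp5 lower, with -3.34, -4.72 and -4.15. Of 13 proliferation genes, 2 were higher and 1 lower against Type 2, and 3 higher and 0 lower against Type 3 and against Other. Beside the counts of these lists, 14.5% to 18.9% of all tested genes were higher and 10.7% to 15.8% lower. Cells of a culture and RNA per cell cannot be told apart in these arrays. Mesothelial and preadipocyte marker levels move with Type 1 as given above, and their part in the member differences was not tested.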

How the data were processed

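RNA of 23 clonal lines was labelled with biotin from 250 ng of total RNA and hybridised to 1 array per line, per the labels' protocols. The deposited values were read as log2 signals, from 2.03 to 14.46, because no header states the scale. MAS5 is named in the submitters' processing notes with no version, and the sources used here do not give how arrays were summarised and scaled.

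Of 45101 probe sets, 34945 list a single gene symbol, 932 several and 9160 none, with 64 controls. Symbols came from the platform annotation, and 34741 were matched by Entrez ID to RefSeq genes (GRCm38.p6), which changed 0 symbols. Each of 18193 genes was represented by its probe set with the highest mean, and the 12307 genes that exceeded the table median in 3 lines or more were tested. No detection calls were used.

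Groups came from the labels, and depot from the clone name. Line numbers follow deposition order and only name a line. limma 3.58.1 in R 4.3.3 (lmFit, eBayes) was fitted over all lines, with p-values adjusted by Benjamini-Hochberg over all tested genes at a threshold of 0.05. The depot difference and score slopes had group in the model. Results for single probe sets came from a separate fit, adjusted over the 21678 single-symbol probe sets that passed the same filter. Python 3.11.15, numpy 2.4.6, pandas 2.3.3 and matplotlib 3.10.9 were used for descriptions and plots, and the fits were tested on simulated data. The members and gene lists were chosen with earlier results of these data known. All members are named, as are up to 3 other imprinted genes in each direction. For members spanning at least 4 log2 units the 3 genes with the highest correlation are named, leaving out clone and predicted names. For other lists, counts and up to 2 genes past the threshold are named. Single markers named by their range were picked after their values were seen. Alternatives covered normalization, array weights, the filter, the probe set rule, depot and clone-name number as terms, the lines compared and leaving out each line.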

Additional observations from a re-analysis of the deposited data

Results flagged for a closer look

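Single lines stood apart from their group in 5 of the 27 sets of group values tested for this with Dixon's criterion, which chance alone meets in about 1 of 20. Grb10 was 7.61 in Type 3 line 7, where the other 7 lines ran from 3.44 to 3.84. Grb10 was also 9.32 in Other line 7, where the rest ran from 3.43 to 5.18. Both are PGF lines. Dlk1 was 8.68 in Other line 3, an SCF line, against 5.72 to 6.22 in the rest. Ndn was 10.55 in Type 2 line 2, below the 11.00 to 11.15 of the other 4 lines. Ndn was 11.87 in Type 3 line 4, above the 10.43 to 11.04 of the rest. The cause was not tested for any of them.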

How the results depend on the processing

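Of 102 alternative values of the member counts, 5 moved by over 1.5 times. With depot in the model, Type 1 against Type 2 called 2 members, since Grb10 and Cdkn1c were lost. Without the Type 1 lines, an alternative chosen after seeing the data, the F test across groups called 0 members and 3 genes. The on and off pattern was found for 2 members with high at 2 log2 units above the table median (Grb10 and Peg3), for 2 with low below the median plus 1 (Grb10 and Dlk1), and for 0 with the mean of the probe sets. When each line was left out in turn, the number of members called ran from 3 to 5 by the F test, 3 to 4 for Type 1 against Type 2, 3 to 3 against Type 3 and 3 to 4 against Other, and it was 0 to 0 in all other comparisons, while the on and off count was 1 to 1. Plagl1 passed in Type 1 against Other without Other line 1 (-2.28, limma adjusted p = 0.0396), and Cdkn1c did not pass in Type 1 against Type 2 without Type 1 line 1 (-1.14, 0.0936). Genes called in these refits ran from 0 to 195 for Type 2 against Type 3 and from 0 to 216 for Type 2 against Other. Apart from these refits, 679 alternative values of 72 member differences lost 3 calls and gained 0, and 0 called values changed sign, while 40 uncalled values did. No paired analysis was possible because the line numbers follow deposition order and pair no samples. Signals near or below the table median limit what can be said of Mest, Cdkn1c, Igf2 and Peg12. They also limit the size of other differences whose lower side lies there. Among these, Grb10 was below the table median in 14 lines and Peg3 in 17. Igfbp2 averaged 3.73 in Type 2, 3.79 in Type 3 and 4.42 in Other, and in Type 1 Asb4 averaged 3.84 and Dnmt3l 4.46.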

Other observations

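The 1 probe set that carries the H19 symbol also lists Mir675, so its signal was assigned to neither gene. It was 11.44 in Other line 4, 11.24 in Type 3 line 4 and 9.15 in Other line 2, all SCF lines, while the other 20 lines ran from 4.41 to 7.02 and 7 of them were below the table median. Igf2 had its highest value, 7.37, in Other line 4. The highest Mest, 7.26, came from Type 1 line 3, the line with the highest Peg3, 8.32, and the lowest Ndn, 7.86.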
